A study of Mus musculus with 12 samples.

Results

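Oxidative phosphorylation is carried out by 5 protein complexes of the inner mitochondrial membrane. Complexes I and II take electrons from NADH and succinate, complexes III and IV pass them on to oxygen, and complex V (ATP synthase) uses the resulting proton gradient to make ATP. Most of their subunits are encoded in the nucleus and are made in step with each other. In liver the chain supplies the ATP for glucose, urea and lipid metabolism. The genes described here are those with a gene symbol starting with Nduf, Uqcr, Atp5 or Cox4 to Cox8, together with Sdha, Sdhb, Sdhc, Sdhd and Cyc1. They numbered 90 of the 19938 genes measured. By the known roles of their products, 34 belonged to complex I, 4 to complex II, 9 to complex III, 17 to complex IV and 17 to complex V. The other 9 were 7 assembly factors of complex I (Ndufaf1 to Ndufaf7), the supercomplex factor Cox7a2l and Ndufa4l2, a paralogue of Ndufa4. Ndufa4 itself was placed in complex IV, where its product works in spite of its name. Of the 17 complex IV genes, 7 encode isoforms that are typical of muscle, lung, testis or other tissues.

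The study compared livers of 6 male LRH-1 K289R knock-in mice with livers of 6 male wild-type (WT) mice, 1 array per mouse. LRH-1, encoded by Nr5a2, is a nuclear receptor of hepatocytes, and the knock-in changes a lysine to which the small protein SUMO is attached. Mice of both groups carried the C57BL/6J background and were fasted for 24 h and then refed for 6 h before the livers were frozen. The comparison asks whether transcripts of the respiratory chain differed between the genotypes in the refed state. Because the samples were whole liver, fewer cells of a type and less RNA per cell cannot be told apart. C57BL/6J mice are known to carry a shortened form of the Cox7a2l protein, and this background was shared by both groups.

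Values are linear probe-set intensities, and the median over all probe sets of an array ranged from 26.8 to 29.2. A value near or below that median was not told from background here. Intensities of different probe sets depend on the probes and are not compared as levels of different genes. The hepatocyte markers (6 of 6 measured) had mean log2 intensities of 11.96 to 12.12 on K289R arrays and 11.79 to 12.16 on WT arrays. These markers include Pck1, which measured 845 to 1612 in K289R, 2194 on WT 1 and 314 to 689 on the other WT arrays. Its log2 fold change was 0.85 (adjusted p = 0.332 by limma). Those of the other hepatocyte markers ran from -0.09 to 0.04. Some arrays stood apart in transcripts of other tissues or of inflammation. Pancreatic acinar markers (7 measured of 9) averaged 8.97 and 9.59 on arrays K289R 1 and K289R 3 and 4.35 to 4.59 on the other 10 arrays. Acute phase genes (9 of 9 measured) averaged 7.83 to 8.92 on K289R arrays. In the WT group they averaged 9.52 for replicate 1, 9.68 for replicate 3 and 7.98 to 8.18 for the remaining 4. Skeletal muscle markers (10 of 10 measured) averaged 5.85 on K289R 3 and 7.03 on WT 1, with 4.47 to 4.88 on the other 10 arrays. Nr5a2 itself had 324 ± 18.4 intensity units in K289R and 303 ± 27.1 in WT (SD, n = 6 each, adjusted p = 0.582 by limma).

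Upstream sequences were available for 73 of the 90 genes in the RefSeq promoter table (GRCm38.p6). The last 100 bases before the annotated start are shown for members to which the values below refer. Uqcr11 and Ndufa10 had K289R arrays that lay wholly above the WT arrays, Ndufs6 had the lowest p of complex I, and Cox8b is the muscle isoform that varied most between arrays. Capitals in Ndufs6 mark a match, on the other strand, to the looser NRF1 motif given below, and the stretches of Uqcr11, Ndufa10 and Cox8b held no match to any motif searched.
Uqcr11 (chr10:80406822-80406921, minus strand): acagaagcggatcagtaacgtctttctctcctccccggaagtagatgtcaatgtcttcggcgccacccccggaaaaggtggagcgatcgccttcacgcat
Ndufa10 (chr1:92473759-92473858, minus strand): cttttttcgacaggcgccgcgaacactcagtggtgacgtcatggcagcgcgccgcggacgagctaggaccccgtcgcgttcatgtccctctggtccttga
Ndufs6 (chr13:73328483-73328582, minus strand): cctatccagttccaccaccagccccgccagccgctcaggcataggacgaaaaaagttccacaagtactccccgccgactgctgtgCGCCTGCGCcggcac
Cox8b (chr7:140900447-140900546, minus strand): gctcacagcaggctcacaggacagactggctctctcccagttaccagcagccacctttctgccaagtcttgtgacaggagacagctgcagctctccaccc

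In the next 4 stretches, capitals mark a motif found by exact search on both strands of the 250 bases before the start. NRF1 is a transcription factor known to act on many respiratory chain genes, and GCGCATGCG is the core of its palindromic site, whose copies on both strands overlap in the 3 stretches that hold it. The estrogen-related receptors and LRH-1 both bind TCAAGGTCA, whose reverse complement stands in capitals in Atp5g3.
Atp5g2 (chr15:102671048-102671147, minus strand): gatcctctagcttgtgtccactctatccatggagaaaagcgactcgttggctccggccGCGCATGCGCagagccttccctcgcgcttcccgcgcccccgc
Atp5k (chr5:108434400-108434499, minus strand): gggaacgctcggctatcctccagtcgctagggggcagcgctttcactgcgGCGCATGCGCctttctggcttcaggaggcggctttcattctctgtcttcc
Ndufa11 (chr17:56717662-56717761, plus strand): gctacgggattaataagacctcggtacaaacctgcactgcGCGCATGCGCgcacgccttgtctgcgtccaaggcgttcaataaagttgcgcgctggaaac
Atp5g3 (chr2:73911327-73911426, minus strand): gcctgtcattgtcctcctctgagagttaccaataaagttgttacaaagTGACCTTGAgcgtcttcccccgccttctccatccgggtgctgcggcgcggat

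GCGCATGCG was found upstream of 7 of the 73 genes (9.59%), which besides Atp5g2, Atp5k and Ndufa11 were Atp5l, Cox6a1, Ndufa8 and Ndufaf4. Over all 27025 genes of the promoter set the share was 1.64%. The looser form GCGCANGCG, which includes the first, was found in 14 members (19.2%) against 5.86% of all genes. TCAAGGTCA was found in 1 member (1.37%) against 0.422%, and its shorter core CAAGGTCA in 3 members (4.11%: Atp5g3, Atp5l and Ndufs5) against 1.51%. CCGGAAGTG, bound by GABP (also called NRF-2), stood upstream of Uqcrh alone among the members (1.37%) and of 1.60% of all genes. AAGATGGCG, bound by YY1, stood upstream of Atp5j alone (1.37%) and of 0.710% of all genes. A match is a run of letters and not a measured binding site.

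No gene of the set passed the test between K289R and WT livers at a Benjamini-Hochberg adjusted p under 0.05 (limma over all 19938 genes). Of all genes tested 0.572% passed, 0.481% higher and 0.0903% lower in K289R. Log2 fold changes of the 90 genes ran from -0.30 to 0.30, with a median of 0.05 against -0.01 over all genes. They were above 0 for 67 of the 90, whereas 46.0% of all genes were above 0. At an unadjusted p under 0.05 there were 12 members, 11 higher and 1 lower in K289R. The upward share was 12.2% of the set against 6.42% of all genes, and the downward share of all genes was 5.61%. Among bright genes the upward share was alike, 14.3% of 56 bright members and 13.8% of 1849 bright genes (mean log2 intensity of 8 or more). The count of 12 was 6 without K289R 6, 7 without WT 4, and 4, of which 3 were higher, with equal array means over bright genes.

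The intervals around these differences were narrow. Leaving aside the 7 isoforms of other tissues, the 95% confidence interval of the fold change lay within 1.25-fold in either direction for 73 of 83 genes. It lay within 1.5-fold for all 83. Over all 19938 genes these 2 counts were 14402 and 19350, and over the 1849 bright genes 1324 and 1746. The residual spread between arrays of a group had a median of 0.12 on the log2 scale over the 90 genes, against 0.15 over all genes. The plot of fold changes with their intervals shows this for each gene.

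**Figure D1:**
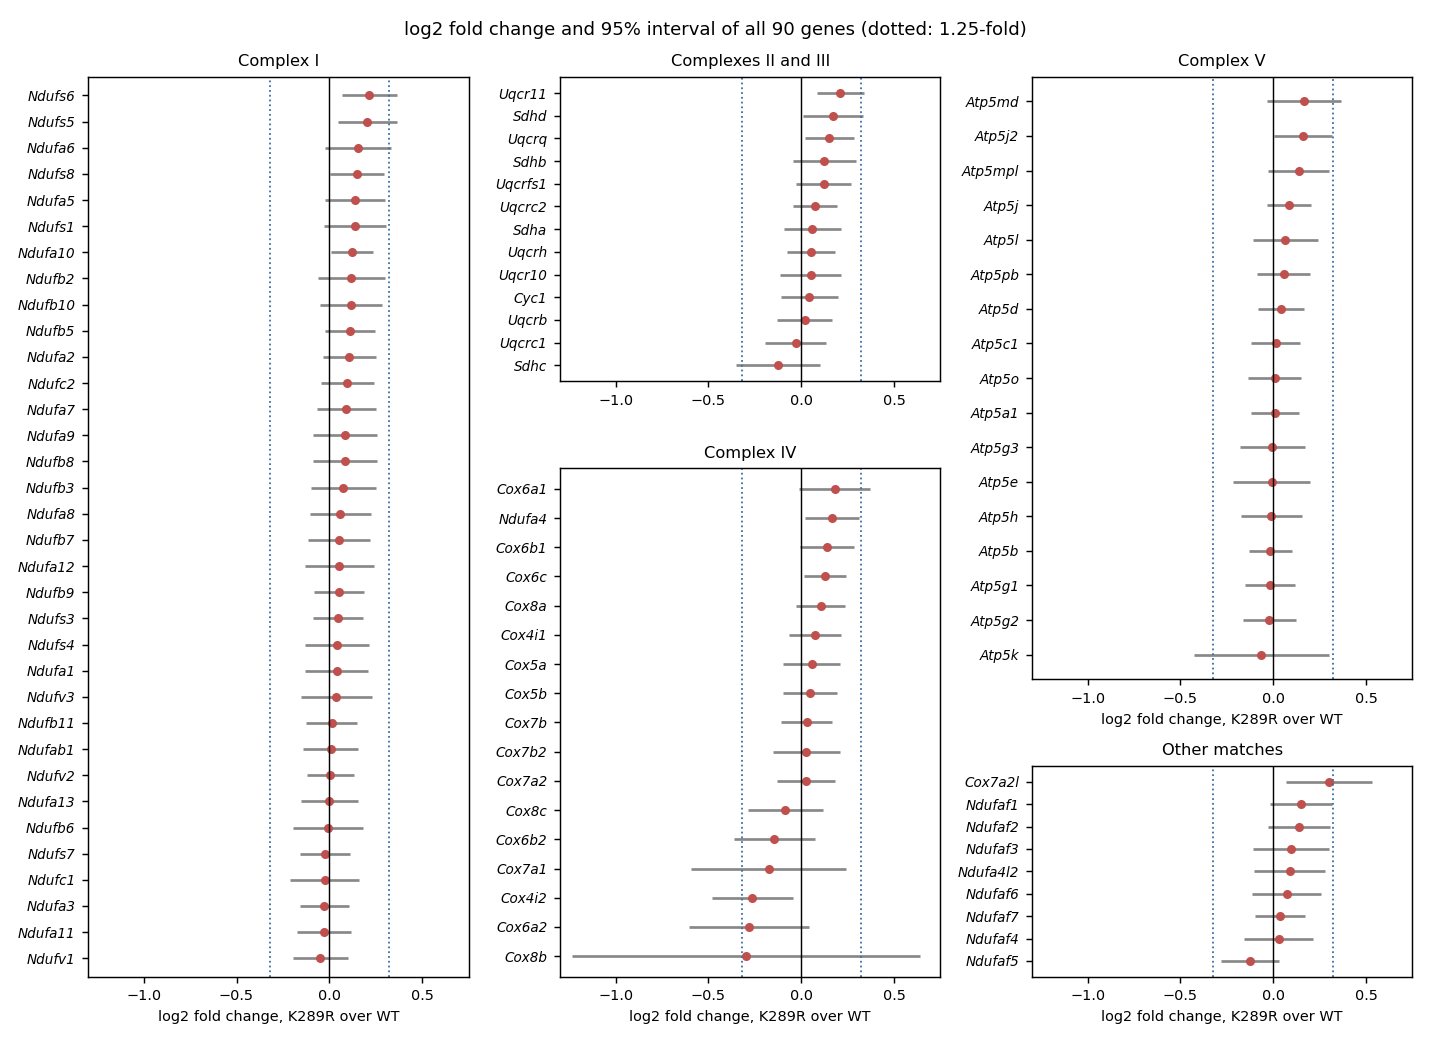
Log2 fold change, K289R over WT, of each of the 90 genes (points) with its 95% confidence interval (bars), by complex, and 1.25-fold bounds as dotted lines. Most points lie slightly right of 0 with intervals inside the bounds, and the widest intervals are those of the muscle isoforms Cox8b, Cox7a1 and Cox6a2 and of Atp5k, a subunit of complex V.

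A lean to positive values was also seen among bright probe sets in general. Members were bright, with a median rank at the 93.9th percentile of all genes by mean log2 intensity. Among all 1849 genes with a mean log2 intensity of 8 or more, the median log2 fold change was 0.04 and 64.8% were above 0. For the 56 members in that range the median was 0.05 and 42 were above 0. When arrays were brought to the same mean over the bright genes, a setting added with the results known, the median of the 90 genes was 0.01 and 50 of them were above 0, against 31.2% of all genes. The curves of fold changes show the members to be more narrowly spread than either larger set.

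**Figure D2:**
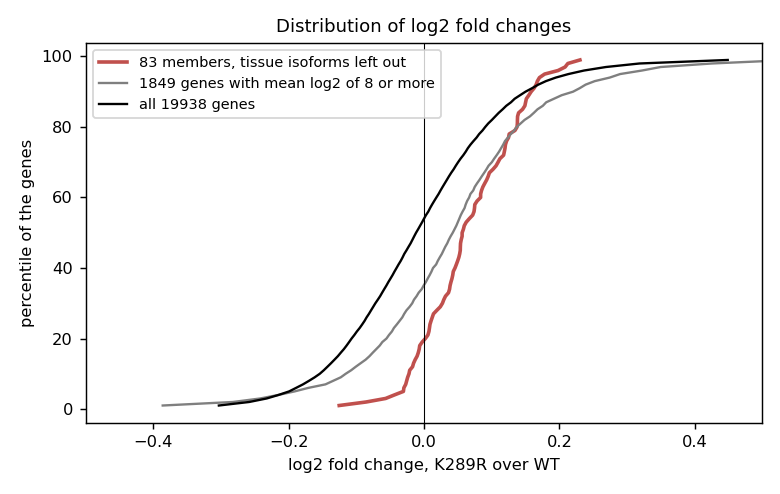
Cumulative distribution of log2 fold changes (x axis, K289R over WT) as percentiles (y axis) for 83 members without the isoforms of other tissues, for 1849 bright genes and for all 19938 genes. The members' curve crosses 0 lowest and rises most steeply, and its median of 0.06 is close to the 0.04 of the bright genes.

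The arrays of the K289R group did not move together. With isoforms of other tissues left out, the mean log2 intensity of 83 genes was 8.62, 8.63 and 8.67 on K289R 1, K289R 5 and K289R 6. It was 8.52 to 8.55 on K289R 2, K289R 3 and K289R 4, and 8.48 to 8.58 on WT arrays. The highest 3 K289R values thus exceeded the WT maximum, and the other 3 fell within the WT range. The mean over bright genes ranked the arrays otherwise. It was 9.23, 9.28 and 9.21 on K289R 1, K289R 5 and K289R 6. On K289R 2, K289R 3 and K289R 4 it was 9.24, 9.20 and 9.22, and on WT arrays 9.14 to 9.23. On K289R 6, 75 of the 83 genes were above their own WT mean, and on K289R 4 it was 38. WT 5 was the WT array with the highest count, 64 of 83. Of all genes, 53.9% were above their own WT mean on K289R 6, 49.6% on K289R 4 and 48.1% on WT 5. Acinar markers were high on K289R 1 and K289R 3, with respiratory chain means of 8.62 and 8.53, and low on K289R 5 and K289R 6. A relation between acinar transcripts and these means was not tested. K289R 1, K289R 5 and K289R 6 were also the highest 3 arrays in complexes I, III, IV and V, as the plot of complex means shows. In complex III K289R 2, and in complex IV K289R 2 and K289R 3, also exceeded the WT maximum. Complex II, with only 4 genes, was highest on K289R 6 (9.49) and next highest on WT 5 (9.38), with 9.22 to 9.31 on the other K289R arrays.

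**Figure D3:**
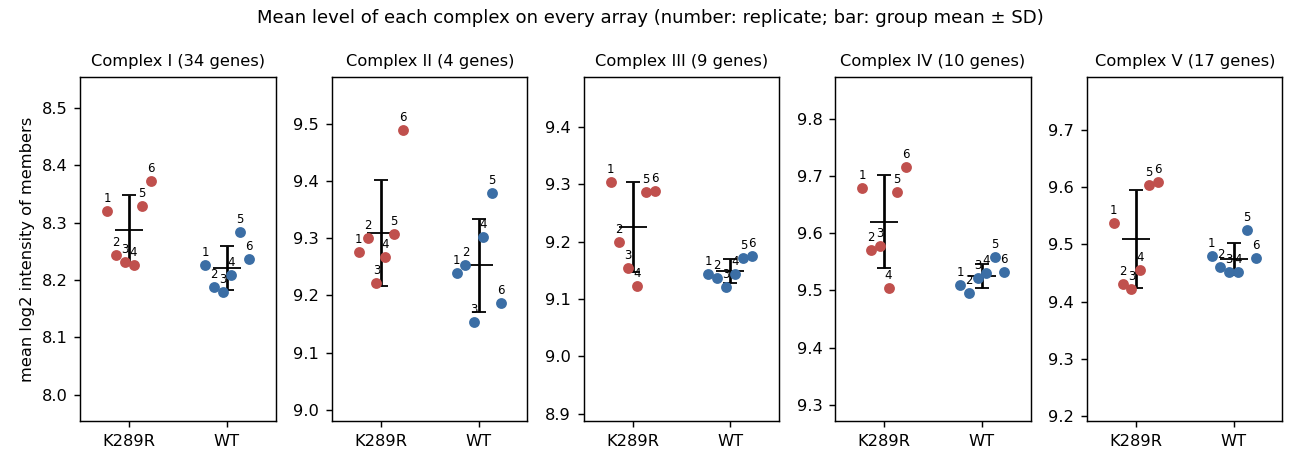
Mean log2 intensity of the members of each complex (isoforms of other tissues left out) on every array, with the replicate number beside each point and group means ± SD as bars. K289R 1, 5 and 6 are the highest 3 arrays for complexes I, III, IV and V except that WT 5 lies close to them in complex V at 9.53, and the groups overlap in every complex.

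In complex I, the NADH dehydrogenase, 27 of 34 genes had a positive log2 fold change and the median was 0.06. That median was 0.09 without K289R 2, and 0.01 with equal means over bright genes, 0.03 with quantile normalization and 0.09 with equal array medians. Of these genes 4 were higher at an unadjusted p under 0.05 (11.8%, against 6.42% of all genes and 13.8% of bright genes), and none passed after adjustment. The largest difference was that of Ndufs6, an accessory subunit of the arm that takes up electrons. Its intensity was 233 to 259 with a median of 245 in K289R, and 183 to 233 with a median of 217 in WT. The groups met at the edge only, with a log2 fold change of 0.21 (95% CI 0.07 to 0.36, adjusted p = 0.220 by limma). Ndufs5, another accessory subunit, measured 122 ± 5.20 in K289R and 107 ± 11.6 in WT (SD, n = 6 each, log2 fold change 0.21, adjusted p = 0.282 by limma). A separate probe set that also matches a pseudogene of Ndufs5 gave a log2 fold change of 0.23.

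Ndufa10, an accessory subunit of the membrane arm, was the complex I gene whose arrays did not overlap. Its intensity was 695 to 753 with a median of 713 in K289R, and 650 to 673 with a median of 657 in WT. The difference was small, a log2 fold change of 0.12 (95% CI 0.01 to 0.23, adjusted p = 0.387 by limma). Among the core subunits that carry flavin or iron-sulfur centres the differences had both signs. Ndufs1, which holds iron-sulfur centres of the electron input module, measured 239 ± 18.8 in K289R and 217 ± 21.5 in WT. Ndufv1, which binds NADH and flavin, measured 392 ± 28.6 in K289R and 406 ± 28.6 in WT. Their log2 fold changes were 0.14 and -0.05 (SD, n = 6 each, adjusted p = 0.500 and 0.806 by limma). The 6 core genes had a median of 0.03 and the 28 accessory genes one of 0.07. The intensity was highest for the probe set of Ndufc2 (1727 ± 114 in K289R and 1615 ± 104 in WT) and lowest for that of Ndufb2 (52.6 ± 5.92 in K289R and 48.3 ± 3.89 in WT).

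The 7 assembly factors of complex I help to build the complex and are not part of it. None passed, 6 had a positive log2 fold change and their median was 0.07. Ndufaf1, which acts on the membrane arm, measured 132 ± 9.77 in K289R and 119 ± 12.6 in WT (log2 fold change 0.15, adjusted p = 0.470 by limma). Ndufaf5 was the member with a negative value, -0.13, and all 12 of its intensities (13.5 to 16.2 in K289R and 14.7 to 17.98 in WT) lay below every array's median. Ndufaf3 measured 169 ± 18.8 in K289R and 159 ± 21.8 in WT.

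Complex II, succinate dehydrogenase, links the tricarboxylic acid cycle to the chain and has 4 subunits, all encoded in the nucleus. Its catalytic flavoprotein Sdha measured 1099 ± 107 in K289R and 1051 ± 48.3 in WT (log2 fold change 0.06, adjusted p = 0.761 by limma). The iron-sulfur subunit Sdhb had a log2 fold change of 0.12 (95% CI -0.05 to 0.30). The membrane anchors, which bind ubiquinone, differed in sign. Sdhd measured 561 ± 56.7 in K289R and 498 ± 38.8 in WT, and Sdhc measured 539 ± 84.7 in K289R and 587 ± 80.6 in WT. Their log2 fold changes were 0.17 (adjusted p = 0.398) and -0.12 (adjusted p = 0.662 by limma), and the arrays overlapped for both. Sdhc varied widely within groups, from 449 to 675 in K289R and from 502 to 707 in WT.

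Complex III passes electrons from ubiquinol to cytochrome c. Of its 9 genes 8 had a positive log2 fold change, with a median of 0.05. That median was 0.04 to 0.08 when 1 array was left out, highest without K289R 3 or K289R 4, and 0.01 with equal means over bright genes, 0.03 with quantile normalization and 0.09 with equal array medians. Uqcr11, which encodes the smallest subunit of the complex, had the smallest p of all 90 genes. Its intensity was 361 to 396 with a median of 383 in K289R, and 316 to 359 with a median of 322 in WT. No K289R value reached down to the WT maximum, although the gap between K289R 3 and WT 2 was narrow. The log2 fold change was 0.21, or 1.16-fold (95% CI 0.08 to 0.34, unadjusted p = 0.00270, adjusted p = 0.150 by limma). A second, dimmer probe set of the gene had a log2 fold change of 0.31. With the mean of both probe sets the adjusted p was 0.0439, and with log2(value + 16) it was 0.0358. In the other settings that kept all arrays it was at least 0.0675.

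Uqcrq, a small subunit next to cytochrome b, was 743 ± 50.3 in K289R and 669 ± 21.2 in WT (log2 fold change 0.15, adjusted p = 0.355 by limma). The redox subunits had smaller differences. Cyc1, which carries the heme of cytochrome c1, measured 689 ± 63.5 in K289R and 667 ± 36.4 in WT. Uqcrfs1, the Rieske iron-sulfur protein, measured 170 ± 14.5 in K289R and 156 ± 8.77 in WT, with a log2 fold change of 0.12. The core proteins Uqcrc1 and Uqcrc2, which face the matrix, had log2 fold changes of -0.03 and 0.07, and Uqcrb, which lies at the ubiquinone site, one of 0.02. None of these passed, with adjusted p of 0.511 to 0.935 by limma.

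Across the set the arrays of the genotypes did not overlap for 3 genes, Uqcr11, Ndufa10 and Cox6c. All 3 were higher in K289R. That is 3.33% of the set, against 1.24% of all genes in either direction, 0.853% in the upward one and 0.391% in the downward one. All 3 are bright, and among bright genes the share in either direction was 5.36% of 56 members and 2.65% of all 1849.

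**Figure D4:**
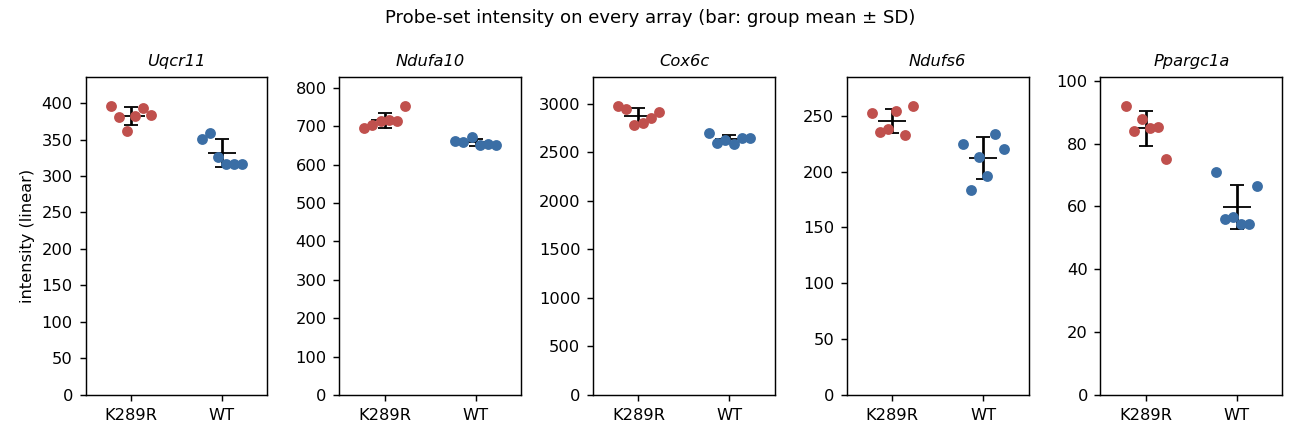
Intensity on each K289R and WT array for Uqcr11, Ndufa10, Cox6c, Ndufs6 and the coactivator gene Ppargc1a, with group means ± SD as bars, on linear axes that start at 0. The respiratory chain genes differ by 1.16-fold or less, and Ppargc1a, with means of 84.9 and 59.8, differs more.

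Complex IV, cytochrome c oxidase, reduces oxygen. Its catalytic core is encoded in mitochondrial DNA, and the nuclear genes measured here encode the surrounding subunits. The 10 genes of the set for subunits that liver is known to use all had positive log2 fold changes. These ran from 0.03 to 0.18 with a median of 0.09, and none passed. Cox7c, another subunit gene, is not among the 10 because its rows also match a second gene. Those rows had log2 fold changes of 0.00 to 0.03. With equal means over bright genes 8 of the 10 were above 0, with -0.02 each for Cox7a2 and Cox7b. With quantile normalization 9 were above 0, as they were without K289R 6, and also without K289R 1, K289R 3, WT 1 and WT 3 together. Cox6c, a membrane subunit, measured 2775 to 2976 with a median of 2883 in K289R, and 2587 to 2700 with a median of 2637 in WT. The groups did not overlap, and the log2 fold change was 0.13 (95% CI 0.01 to 0.24, adjusted p = 0.367 by limma). A second probe set of the gene also gave 0.13. Cox6a1, the liver form of subunit VIa, had 630 ± 81.6 in K289R and 555 ± 54.7 in WT (log2 fold change 0.18, adjusted p = 0.456 by limma). Ndufa4 had a log2 fold change of 0.16 and Cox6b1, which faces the intermembrane space, one of 0.14. Cox4i1, Cox5a, Cox5b and Cox8a lay between 0.05 and 0.10.

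Single arrays set the values of the muscle isoforms. Cox8b, the form of subunit VIII of muscle and brown fat, measured 43.7 on K289R 3 and 21.0 to 29.7 in the rest of that group. In WT it was at 214 for replicate 1 and 19.8 to 26.4 for the rest. Both high arrays were those with the highest skeletal muscle markers, among which muscle actin (Acta1) measured 288.9 on K289R 3 and 672 on WT 1, with 45.1 to 69.0 elsewhere. Cox7a1 and Cox6a2, the muscle forms of subunits VIIa and VIa, measured 26.0 to 33.6 and 36.4 to 47.05 in K289R. In WT they measured 73.0 and 91.4 for replicate 1, and 24.6 to 34.0 and 41.0 to 48.5 otherwise. The log2 fold changes of Cox8b, Cox7a1 and Cox6a2 were -0.30, -0.18 and -0.28 with all arrays. Without WT 1 they were 0.24, 0.05 and -0.11. The part of muscle RNA in these values was not tested. The 5 brown fat markers include Cox7a1 and Cox8b, and the others differed in level. Ucp1 was at 7.24 to 8.82 in K289R and 7.70 to 10.2 in WT, below every array's median. Cidea was also below it, at 7.26 to 9.88 in K289R and 7.14 to 9.02 in WT. Elovl3 measured 2278 to 3103 in K289R and 1006 to 3004 in WT. The part of brown fat RNA was not tested either.

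**Figure D5:**
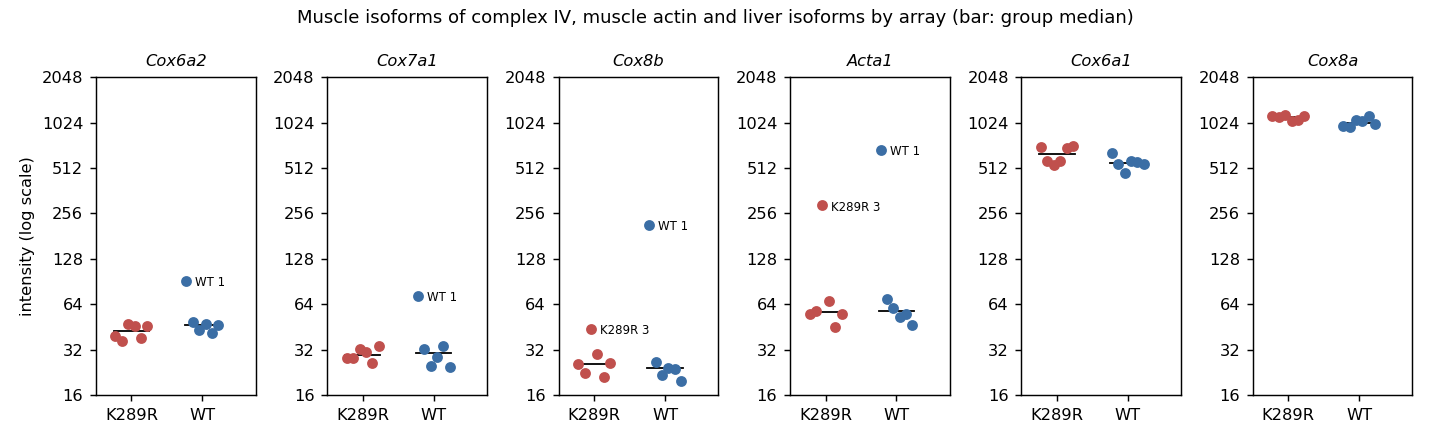
Intensity on a log axis for the muscle isoforms Cox6a2, Cox7a1 and Cox8b, the muscle actin gene Acta1 and the liver isoforms Cox6a1 and Cox8a on K289R and WT arrays, with group medians as bars. WT 1 is high for the 3 muscle isoforms and Acta1, K289R 3 for Cox8b and Acta1, and Cox8a lies between 962 and 1144 on all 12 arrays.

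Of the remaining isoforms, Cox4i2, which is known from lung and from low oxygen, was the member lower at an unadjusted p under 0.05. Its intensity was 18.4 to 30.7 with a median of 24.9 in K289R, and 27.9 to 31.1 with a median of 28.6 in WT. The groups overlapped, and the values lie close to the array medians (log2 fold change -0.26, adjusted p = 0.316 by limma). Cox6b2 and Cox8c, known from testis, had log2 fold changes of -0.14 and -0.09 at intensities of 17.6 to 31.1. Cox7b2 was below every array's median, at 6.68 to 9.44 in K289R and 6.69 to 8.14 in WT.

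Cox7a2l, whose product joins complexes III and IV in supercomplexes, had the highest log2 fold change of the set. It measured 82.2 to 127.5 with a median of 91.3 in K289R, and 66.1 to 90.1 with a median of 80.1 in WT. The highest value was on K289R 5, the groups overlapped, and the log2 fold change was 0.30 (95% CI 0.07 to 0.53, adjusted p = 0.278 by limma). Its second probe set gave 0.22. Ndufa4l2, known as a gene induced by low oxygen, measured 22.8 ± 3.58 in K289R and 21.2 ± 0.95 in WT, with no array above 28.0.

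Complex V had a median log2 fold change of 0.01 over 17 genes, with 10 of them above 0. The sign of that median was not stable: it was -0.003 with quantile normalization and -0.04 with equal means over bright genes, and -0.004 and -0.006 without K289R 5 and without K289R 6. With any 1 array left out it was at most 0.04, the value without K289R 3. The catalytic F1 subunits Atp5a1 and Atp5b measured 1255 ± 79.9 and 3288 ± 115 in K289R, and 1247 ± 44.3 and 3321 ± 43.9 in WT. Their log2 fold changes were 0.01 (95% CI -0.12 to 0.14) and -0.02 (95% CI -0.13 to 0.10). All 5 F1 subunits lay between -0.02 and 0.04. The 3 genes of the rotating ring, Atp5g1, Atp5g2 and Atp5g3, encode the same mature protein, and their log2 fold changes were -0.02, -0.02 and -0.01.

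The 5 small membrane subunits of complex V were more spread. Atp5md, also known as DAPIT, measured 970 ± 101 in K289R and 867 ± 122.6 in WT (log2 fold change 0.17, adjusted p = 0.499 by limma). Atp5j2 measured 682 to 852 with a median of 726 in K289R, and 613 to 726 with a median of 670 in WT (log2 fold change 0.16, adjusted p = 0.405 by limma). Atp5k, subunit e, varied most between K289R livers, from 93.7 on K289R 3 to 222 on K289R 6, against 143 to 199 in WT. Its log2 fold change was -0.06 (95% CI -0.42 to 0.30).

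Of the 90 genes 17 had more than 1 probe set. For 14 of them the log2 fold changes of all probe sets lay within 0.1 of each other. The exceptions were Atp5md, Ndufa11 and Uqcr11, and signs differed for Atp5pb, Ndufa11 and Uqcrb. Several members have processed copies elsewhere in the genome that their probes may share. Rows matching Cox7c and Ndufb4 together with a second gene were kept out of the set. Their log2 fold changes were 0.00 to 0.03 and 0.11 to 0.12.

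Genes around the respiratory chain were read from the same fit. Among 17 regulators of mitochondrial biogenesis, Ppargc1a rose and no other gene passed. It encodes PGC-1alpha, a coactivator of nuclear receptors that is known to induce respiratory chain genes. Its intensity was 75.2 to 92.0 with a median of 85.1 in K289R, and 54.4 to 70.9 with a median of 56.4 in WT. The groups did not overlap (log2 fold change 0.51, 95% CI 0.34 to 0.68, adjusted p = 0.00426 by limma). The list's median was 0.04, with 10 of 17 above 0. The mitochondrial transcription factor Tfam had a log2 fold change of 0.23 (adjusted p = 0.288) and Tfb1m, a mitochondrial ribosomal RNA methyltransferase, one of -0.32 (adjusted p = 0.147 by limma). Both were named after their values were seen. The estrogen-related receptor Esrra had -0.07, and the coactivator Ppargc1b -0.05.

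In the 16 measured genes of the tricarboxylic acid cycle and pyruvate dehydrogenase none passed, and the median was 0.08. At an unadjusted p under 0.05, 7 were higher (43.75%, against 6.42% of all genes and 13.8% of bright genes). In the downward direction there was 1, against 5.61% of all genes. It was Ogdh (log2 fold change -0.16, adjusted p = 0.334 by limma). The arrays did not overlap for 1 gene of the list, which was lower in K289R (6.25%, against 1.24% of all genes in either direction). The leading members were Suclg2, a subunit of succinyl-CoA synthetase, with 654 ± 57.8 in K289R and 510 ± 72.6 in WT (log2 fold change 0.37, adjusted p = 0.109), and Pdhb, a subunit of pyruvate dehydrogenase (log2 fold change 0.30, adjusted p = 0.159 by limma). Mitochondrial ribosomal proteins, which translate the subunits encoded in mitochondria, had a median of 0.09 over 77 genes. They were dimmer than the bright genes, with a median rank by mean log2 intensity at the 81.2 percentile against 95.4. Of these 77 genes 61 were above 0 (79.2%, against 46.0% of all genes and 64.8% of bright genes). At an unadjusted p under 0.05, 9 were higher (11.7%, against 6.42% of all genes and 13.8% of bright genes) and none lower. None passed. Mrpl13 and Mrpl18 had the smallest p (log2 fold changes 0.33 and 0.21, adjusted p = 0.153 and 0.179 by limma).

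No gene passed among 11 of cytochrome c and coenzyme Q synthesis (median 0.04), 25 assembly factors outside the symbol rule (median 0.05), or 8 carriers, pores and uncoupling proteins (median -0.01). The smallest p in these lists belonged to Coq9 and Pdss2 of coenzyme Q synthesis (0.20 and 0.22), Sco1 and Timmdc1 of assembly (0.16 and 0.12), and Ucp3 and Atpif1, the inhibitor of ATP synthase (-0.17 and 0.16). These are log2 fold changes, with adjusted p of 0.286 to 0.511 by limma. Ucp3 measured 12.9 to 17.0 in K289R and 14.8 to 17.6 in WT, below every array's median. Of subunits encoded in mitochondrial DNA, ND3 of complex I and COX2 of complex IV were measured. COX2 had 3898 ± 500 in K289R and 3842 ± 336 in WT, and ND3 had 2243 ± 499 in K289R and 2317 ± 293 in WT. Their log2 fold changes were 0.02 and -0.07 (adjusted p = 0.958 and 0.859 by limma).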

How the data were processed

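Each of the 12 arrays (6 K289R and 6 WT livers) has 1 deposited intensity per probe set, on a linear scale. The authors made these intensities with Affymetrix Expression Console, per the submitters' processing notes. The sources used here do not give its version, background correction, summarization or normalization. Replicates are separate mice per the labels, and the number of arrays limits the precision. Of 35556 rows, 21789 had 1 gene symbol in the platform annotation, 1621 held more than 1 and 12146 had no entry. Only the first kind was used, with the brightest probe set per gene by mean log2 over 12 arrays, which gave 19938 genes.

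Log2 was taken without a pseudocount, and K289R was compared with WT with limma 3.58.1 in R 4.3.3 (lmFit, eBayes, no covariates, two-sided, Benjamini-Hochberg over all genes). The procedure was tested on simulated data with changes of 1.5-fold or more. These are larger than any measured for the members, so that test does not bear on differences of their size. Intervals are limma's 95% intervals. Members, lists and the 4 arrays left out in some settings were chosen with earlier results of these data known. Named genes were, per complex, those of smallest p, extreme fold change and extreme brightness, plus fixed core and isoform genes, and per list the called genes or the 2 of smallest p. Ndufs5, Ndufa10, Uqcrq, genes named for a motif and a few list genes were added after their values were seen. Same-numbered arrays had correlations of deviations from group means of -0.23 to 0.23. The labels state no pairing of mice, these values cannot exclude one, and the main fit used none. Slide and scan date were not used here. Alternatives changed the scaling, pseudocount, filter, probe-set rule, variance model, weights and arrays.

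Upstream sequences come from RefSeq (GRCm38.p6), matched by gene ID. The files name no genome build. Figures were drawn with matplotlib 3.10.9.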

Additional observations from a re-analysis of the deposited data

Results flagged for a closer look

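Of 100 sets of 6 arrays tested for an array far from the rest (44 named genes and 6 complex or assembly means, in each genotype), 11 had such an array, where chance gives about 1 in 20. Array WT 1 accounted for 5 of them. It was high for Cox8b (214, others 19.8 to 26.4), Cox6a2 (91.4, others 41.0 to 48.5), Cox7a1 (73.0, others 24.6 to 34.0) and Atp5k (199, others 143 to 160), and low for Cox5b (807, others 905 to 960). WT 5 was high for Uqcrc2 (1324, others 1201 to 1237) and WT 6 low for Cox6b2 (21.9, others 26.4 to 28.4). K289R 6 was high for Sdhd (669, others 511 to 561), for the mean of complex II (9.49 on the log2 scale, others 9.22 to 9.31) and for Cox7b2 (9.44, others 6.68 to 7.58), which lies below every array's median. K289R 4 was low for Cox4i1 (328, others 384 to 406).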

How the results depend on the processing

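No member passed with all arrays except Uqcr11, which passed with log2(value + 16) and with the mean of all probe sets, 1 gene higher each time. The count at an unadjusted p under 0.05, 12 as reported, was 19 with equal array medians, 6 with quantile normalization, 7 without K289R 1 and 3, 7 without those and WT 1 and 3, and 4 with equal means over bright genes. It was 6 to 13 when 1 array was left out, with 0 members passing, and 9 with the replicate number as a block, a fit in which no member passed either. The median log2 fold change of all members was 0.01 to 0.09 over all settings. That of complex IV, 0.03 as reported, was 0.02 to 0.07 with 1 array left out, -0.02 with equal means over bright genes and 0.09 without isoforms of other tissues. Of 44 named members, 29 kept their sign under every setting.

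Signs changed for 15, of which only Ndufb2 and the muscle isoforms Cox7a1 and Cox8b had a reported size above 0.1. With equal array medians Atp5b was 0.022, Atp5g1 0.021, Atp5g2 0.015, Atp5g3 0.031 and Uqcrc1 0.0068. With quantile normalization Cox7a2 was -0.0086. With equal means over bright genes Atp5a1 was -0.038, Cox7a2 -0.021, Cox7b2 -0.018, Cyc1 -0.0028 and Uqcrb -0.027. Without K289R 1 and 3 Atp5g2 was 0.032, Atp5g3 0.038 and Atp5k 0.10. Without WT 1 and 3 Atp5a1 was -0.0064, Cox8b 0.22 and Cyc1 -0.00085. Without all 4 Atp5a1 was -0.0049, Atp5k 0.16, Cox5b -0.0037, Cox8b 0.069 and Ndufb2 -0.0056. Without K289R 3 and WT 1, a setting added with the results known, Atp5a1 was -0.0088, Atp5g2 0.0077, Atp5g3 0.019, Atp5k 0.14, Cox7a1 0.026 and Cox8b 0.10. With 1 array left out the ranges were -0.014 to 0.039 for Atp5a1, -0.038 to 0.0057 for Atp5g1, -0.050 to 0.017 for Atp5g2, -0.067 to 0.037 for Atp5g3, -0.18 to 0.074 for Atp5k, -0.27 to 0.049 for Cox7a1, -0.013 to 0.068 for Cox7a2, -0.040 to 0.060 for Cox7b2, -0.45 to 0.24 for Cox8b and -0.016 to 0.055 for Uqcrb. The causes were not tested. No detection call was used, so values near the array medians are limited by background.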
